A study of Homo sapiens with 18 samples.

Results

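The interleukin 1 (IL-1) family of ligands and receptors was described here through 8 genes of a count matrix of 57448 genes: the ligands IL1A, IL1B, IL18 and IL33, the receptor antagonist IL1RN, the receptor chains IL1R1 and IL1RAP, and the protease CASP1. The 8 genes were chosen on measured values, since the levels of IL1A and IL1B showed the largest inflammatory falls in the GPS2 knockout pools, so their values in KO1 and KO2 against WT are given as a description with no test. Each was found by its Ensembl identifier. Of the 8 genes, 6 reached 1 CPM (read counts scaled to library size) in at least 3 libraries and entered the tests with 15587 genes in all. IL1RN and IL33 did not reach that level, and their counts are given below. The CPM levels printed below also include TMM factors, which this filter did not use.

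RNA-Seq was performed on 18 libraries of MDA-MB-231, a triple negative breast cancer line, in 6 groups of 3 replicates. WT was the parental line, untreated. KO1 and KO2 were puromycin-selected pools, not clones, made from it by lentiviral CRISPR-Cas9 with different sets of guides against GPS2. GPS2 is a subunit of the NCoR/SMRT corepressor complex. No control virus or selection is described for WT. In KO1 and KO2 against WT, transduction and selection therefore cannot be told apart from the knockout. The myrAKT group carried a retrovirus for myristoylated, constitutively active AKT1, with no control transduction beside it, and the KO1+MK and KO2+MK groups were the knockout pools given 10 µM MK2206, an allosteric AKT inhibitor, for 4 h. No WT or myrAKT cells were treated with MK2206, no vehicle is named for the untreated cells, and nothing in the labels says that replicates were separate cultures, so p-values measure the spread between these libraries, which may be technical.

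IL-1α and IL-1β, the products of IL1A and IL1B, signal through the same receptor, formed by IL1R1 and the accessory chain IL1RAP, which recruits MYD88 and the IRAK kinases and leads to NF-κB and MAP kinase activation. IL-1β and IL-18 are made as inactive precursors that caspase-1, the product of CASP1, cleaves inside inflammasomes, whereas the IL-1α precursor is already active. IL1RN encodes a ligand that occupies the receptor without signaling, IL33 encodes an alarmin of epithelial and endothelial nuclei, and IL-1 made by tumor cells is known to induce chemokines, proteases and cytokines in the cells that receive it.

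IL1A and IL1B are neighbors on chromosome 2 of hg38, both on the minus strand. IL1A spans chr2:112773925-112784493 and IL1B spans chr2:112829751-112836816. Stretches upstream of a RefSeq transcript start of each (GRCh38.p14) are shown, minus strand 5′ to 3′, because these genes had the largest falls in the knockout pools among the 8 and fell unequally in myrAKT. The IL1A stretch runs from base 250 to base 1 upstream of the start at 112784493 (chr2:112784494-112784743). The IL1B stretch runs from base 250 to base 51 upstream of the start at 112836779 (chr2:112836830-112837029). Capitals mark every match, on either strand, to a C/EBP motif (TTNNGNAA), an AP-1 motif (TGANTCA) or TATAAA, and no marked matches overlap.
IL1A promoter: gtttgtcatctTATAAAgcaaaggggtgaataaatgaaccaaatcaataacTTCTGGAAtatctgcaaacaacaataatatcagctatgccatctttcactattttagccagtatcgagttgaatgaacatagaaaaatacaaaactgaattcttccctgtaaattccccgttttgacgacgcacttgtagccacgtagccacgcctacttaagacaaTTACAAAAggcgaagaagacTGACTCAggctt
IL1B promoter: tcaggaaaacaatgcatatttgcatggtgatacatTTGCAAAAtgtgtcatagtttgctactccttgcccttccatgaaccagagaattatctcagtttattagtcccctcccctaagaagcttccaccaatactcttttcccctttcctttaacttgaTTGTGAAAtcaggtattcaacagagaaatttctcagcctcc

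The IL1A window held an AP-1 match at 12 to 6 bases upstream, C/EBP matches at 199 to 192 and at 32 to 25, and TATAAA at 239 to 234. The IL1B window held C/EBP matches at 215 to 208, at 91 to 84 and, outside the printed stretch, at 41 to 34. Neither window held a match to a FOXO motif (TGTTTAC) or to the NF-κB motif. Of 35116 promoters in the table, counted over the 250 bases upstream, 33.2% held the C/EBP motif, 10.7% TATAAA, 6.57% AP-1, 5.21% NF-κB and 2.98% FOXO, so a C/EBP match is common. A match describes letters, not a site in use. Of the 8 genes, 6 have entries in that table, the exceptions being IL18 and CASP1.

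IL1A, the ligand that acts without cleavage, was high in WT and low in every other group. Its levels in WT were 32.8, 26.4 and 31.3 CPM, with 963 to 1165 counts per library. They were 6.18, 8.26 and 5.66 CPM in KO1 and 1.66, 2.88 and 1.60 CPM in KO2. No KO1 or KO2 library reached any WT library, and every KO2 library lay below every KO1 library. The log2 fold change against WT was -2.19 ± 0.111 (SE) in KO1 and -3.87 ± 0.147 in KO2. In bulk RNA, fewer cells that express a gene and less RNA per cell cannot be told apart.

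In myrAKT, IL1A stood at 2.49, 3.90 and 4.06 CPM, between the KO1 and the KO2 mean. The log2 fold change against WT was -3.11 ± 0.131 (edgeR adjusted p = 1.88e-10), an 8.63-fold lower level, with all 3 libraries below all 3 WT libraries. This comparison shares the WT libraries with those that chose the genes. With MK2206, IL1A was 8.43, 6.66 and 6.34 CPM in KO1 and 1.81, 2.69 and 2.27 CPM in KO2. These values overlapped the untreated pools, with log2 fold changes of 0.11 ± 0.147 in KO1 (adjusted p = 0.573) and 0.15 ± 0.23 in KO2 (adjusted p = 0.629).

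IL1B, whose product needs cleavage, showed falls of similar size in the knockout pools and a much smaller one in myrAKT. Its levels in WT were 70.5, 62.3 and 71.7 CPM. They were 16.2, 20.5 and 13.3 CPM in KO1 and 3.77, 4.94 and 4.68 CPM in KO2. The groups did not overlap and stood in the order WT, KO1, KO2. The log2 fold change against WT was -2.05 ± 0.102 in KO1 and -3.93 ± 0.0832 in KO2.

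In myrAKT, IL1B was 35.4, 44.8 and 41.5 CPM, below every WT library and above every knockout library. The log2 fold change against WT was -0.75 ± 0.0762 (adjusted p = 1.24e-06). With MK2206, IL1B was 20.2, 19.3 and 18.0 CPM in KO1, within the spread of the untreated KO1 libraries (0.22 ± 0.121, adjusted p = 0.154). In KO2 it was 3.09, 2.77 and 2.34 CPM with MK2206, below all 3 untreated KO2 libraries. That log2 difference of -0.69 ± 0.147 had an adjusted p of 0.00127 and missed the limit of 0.001. It passed without KO2 replicate 1 (-0.80, adjusted p = 0.000929) and with DESeq2 (adjusted p = 0.000908).

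**Figure D1:**
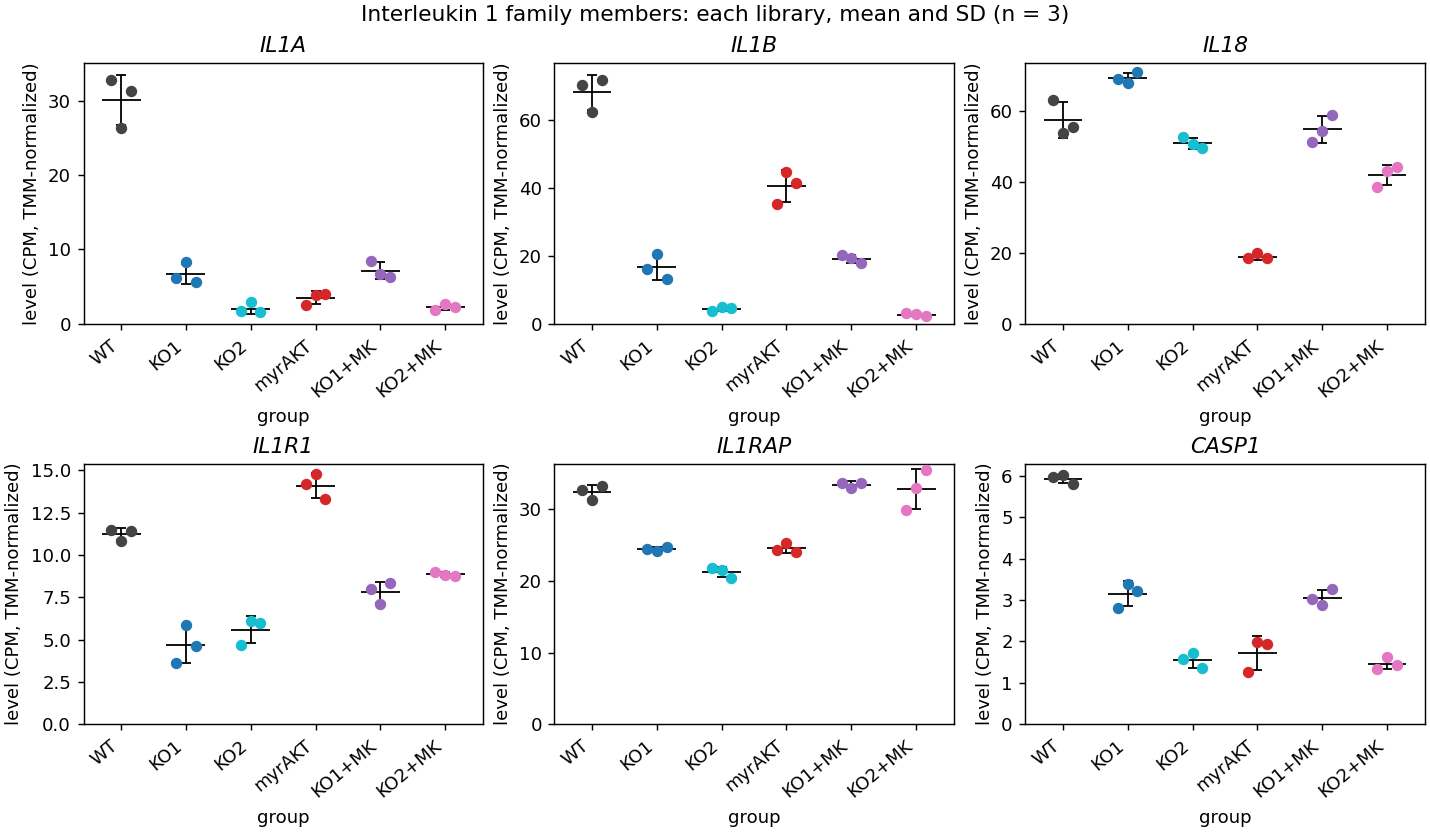
Levels of the 6 tested genes in each library (points, CPM after TMM normalization, linear axes from 0) by group, with the group mean (line) and SD (bar), n = 3. IL1A was at 26.4 CPM or more in WT and at 8.43 CPM or less in every other library, whereas IL1B in myrAKT stayed at 35.4 to 44.8 CPM and IL18 was lowest in myrAKT.

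The ratio of IL1B to IL1A counts within a library, which does not depend on library size, separated myrAKT from the other groups. There were 2.27 ± 0.107 IL1B counts per IL1A count in WT (SD, n = 3), 2.48 ± 0.14 in KO1, 2.3 ± 0.601 in KO2 and 2.71 ± 0.273 in KO1+MK. In myrAKT the ratio was 12 ± 2.04, with libraries at 10.2 to 14.2 against 2.15 to 2.36 in WT. In KO2+MK it was 1.25 ± 0.39, with libraries at 1.03 to 1.7 against 1.71 to 2.92 in KO2. Of the 6 comparisons of the ratio made, both of these gave p = 0.1 in a two-sided exact permutation test, the smallest that 3 against 3 allows, so the design cannot reach 0.05. The KO2 libraries hold 58 to 112 IL1A counts, which limits the precision of their ratio.

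**Figure D2:**
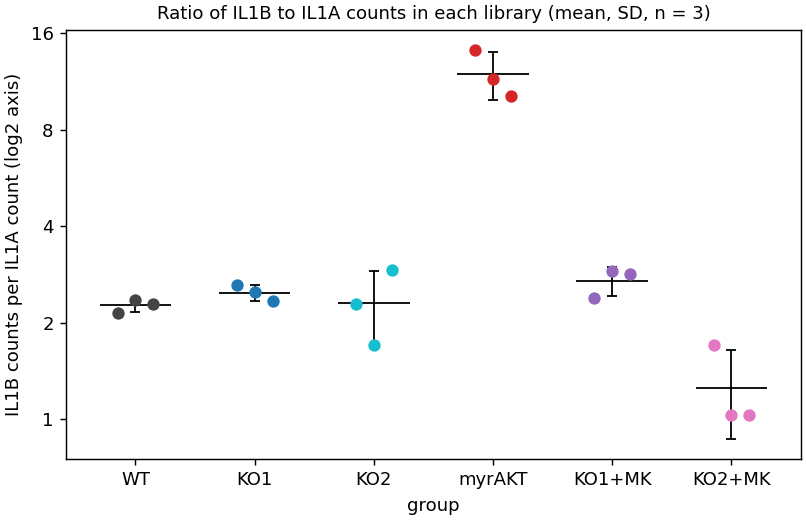
IL1B counts per IL1A count in each library (points, log2 axis) by group, with mean (line) and SD (bar), n = 3. The myrAKT libraries lie at 10.2 to 14.2, and no library of another group exceeds 2.92.

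IL18, the other ligand that caspase-1 cleaves, followed a different course. Its levels were 63.1, 53.7 and 55.5 CPM in WT, 68.9, 67.8 and 70.9 CPM in KO1 and 52.7, 50.6 and 49.5 CPM in KO2. KO1 lay above WT and KO2 below it, by log2 fold changes of 0.25 ± 0.0523 and -0.18 ± 0.0522. In myrAKT, IL18 fell to 18.5, 19.9 and 18.4 CPM, with a log2 fold change of -1.61 ± 0.0642 against WT (adjusted p = 1.1e-10), so that it lay below every library of every other group. With MK2206 it was 51.3, 54.3 and 59.0 CPM in KO1 and 38.7, 43.1 and 44.2 CPM in KO2, below all untreated libraries of the same pool. Those differences of -0.31 ± 0.0459 (adjusted p = 0.000135) and -0.26 ± 0.0535 (adjusted p = 0.00105) were both smaller than the 1.5-fold limit for a call.

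IL1RN, the receptor antagonist, had 0 to 4 counts per library, and IL33 had 0 counts in all 18 libraries. A count of 0 allows up to 3 counts, which corresponds to 0.0771 to 0.125 CPM at the depth of these libraries. IL1RN and IL33 were thus not detectable above that level, apart from IL1RN in 1 myrAKT library at 0.103 CPM. Intervals and floors of this kind cover counting error only.

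Levels of different genes were compared per kilobase of exon, with the exons of all annotated transcripts of a gene merged. This can lower genes with many transcripts, such as CASP1 (22), more than IL1A (1), so the order of genes is approximate. In WT, IL1B was at 22.7 ± 1.7 CPM per kb (SD, n = 3), IL18 at 22.0 ± 1.93 and IL1A at 14.9 ± 1.65. IL1B and IL18 did not differ beyond their spread. IL1RAP followed at 2.89 ± 0.0871 CPM per kb, then IL1R1 at 1.58 ± 0.0518 and CASP1 at 1.5 ± 0.03. In KO2, IL18 stood at 19.5 ± 0.607 CPM per kb, the receptor chain IL1RAP at 1.89 ± 0.0674, and the ligands IL1B at 1.48 ± 0.203 and IL1A at 1.01 ± 0.358. Among the ligands in myrAKT, IL1B led with 13.5 ± 1.59 CPM per kb, ahead of IL18 at 7.27 ± 0.317 and IL1A at 1.73 ± 0.428. The receptor chains there were at 2.19 ± 0.0627 (IL1RAP) and 1.98 ± 0.103 (IL1R1).

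IL1R1, the signaling receptor chain, was lower in the knockout pools than in WT and higher in the pools with MK2206 than without. Its levels were 11.5, 10.8 and 11.4 CPM in WT, 3.65, 5.85 and 4.64 CPM in KO1 and 4.69, 6.10 and 6.01 CPM in KO2. KO1 and KO2 overlapped each other and lay below WT, by log2 fold changes of -1.27 ± 0.123 and -1.01 ± 0.0973. In myrAKT it was 14.2, 14.8 and 13.3 CPM, above all WT libraries, but the log2 difference of 0.32 ± 0.0715 (adjusted p = 0.00174) missed both limits for a call.

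With MK2206, IL1R1 was 7.97, 7.10 and 8.33 CPM in KO1 and 9.02, 8.84 and 8.75 CPM in KO2. All treated libraries lay above all untreated libraries of their pool and below all WT libraries. The increase was 0.75 ± 0.144 on the log2 scale in KO1 (adjusted p = 0.000946) and 0.68 ± 0.102 in KO2 (adjusted p = 7.55e-05). The call in KO1 was lost when KO1 replicate 1, KO1 replicate 3, KO1+MK replicate 2 or KO1+MK replicate 3 was left out, with log2 fold changes of 0.60 to 0.94 over all 6 leave-outs. It was also lost with upper-quartile factors (0.73, adjusted p = 0.00161). The call in KO2 was lost without KO2 replicate 1, where the log2 fold change was 0.57. IL1R1 shares 11 exon bases, 0.154% of its exon length, with the antisense gene IL1R1-AS1.

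IL1RAP, the accessory chain, differed in the same directions over a narrower range in the knockout and MK2206 groups. Its levels were 32.6, 31.3 and 33.2 CPM in WT, 24.4, 24.1 and 24.7 CPM in KO1 and 21.8, 21.6 and 20.4 CPM in KO2, with log2 fold changes against WT of -0.43 ± 0.0462 and -0.61 ± 0.0491. In myrAKT, where IL1R1 had its highest levels, IL1RAP was 24.4, 25.3 and 24.0 CPM, a log2 difference from WT of -0.41 ± 0.0523 (adjusted p = 1.45e-05) that was smaller than 1.5-fold. With MK2206 it was 33.6, 32.9 and 33.7 CPM in KO1 and 29.9, 33.0 and 35.5 CPM in KO2. These levels overlapped those of WT and lay above all untreated libraries of the same pool. The increase was called in KO2 (0.64 ± 0.0648, adjusted p = 1.62e-06) and had an adjusted p of 3.13e-06 but less than 1.5-fold size in KO1 (0.48 ± 0.0453). Without KO2+MK replicate 3 the KO2 value was 0.58, just short of 1.5-fold.

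CASP1, the protease, was lower in every other group than in WT. Its levels were 5.97, 6.03 and 5.80 CPM in WT, 2.81, 3.40 and 3.23 CPM in KO1 and 1.57, 1.72 and 1.36 CPM in KO2, in 3 groups that did not overlap. The log2 fold changes against WT were -0.93 ± 0.107 in KO1 and -1.94 ± 0.124 in KO2. In myrAKT it was 1.26, 1.98 and 1.94 CPM, with a log2 fold change of -1.78 ± 0.16 (adjusted p = 3.74e-07). With MK2206 the levels were 2.89 to 3.26 CPM in KO1 and 1.34 to 1.62 CPM in KO2, overlapping the untreated pools, with differences of -0.02 ± 0.137 and -0.07 ± 0.187 on the log2 scale (adjusted p = 0.937 and 0.79). CARD16, a near-identical neighbor that lacks the protease domain, can share reads with CASP1, so the split between them is uncertain. CARD16 fell in myrAKT by 1.35 on the log2 scale (SE 0.136, adjusted p = 1.22e-06).

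**Figure D3:**
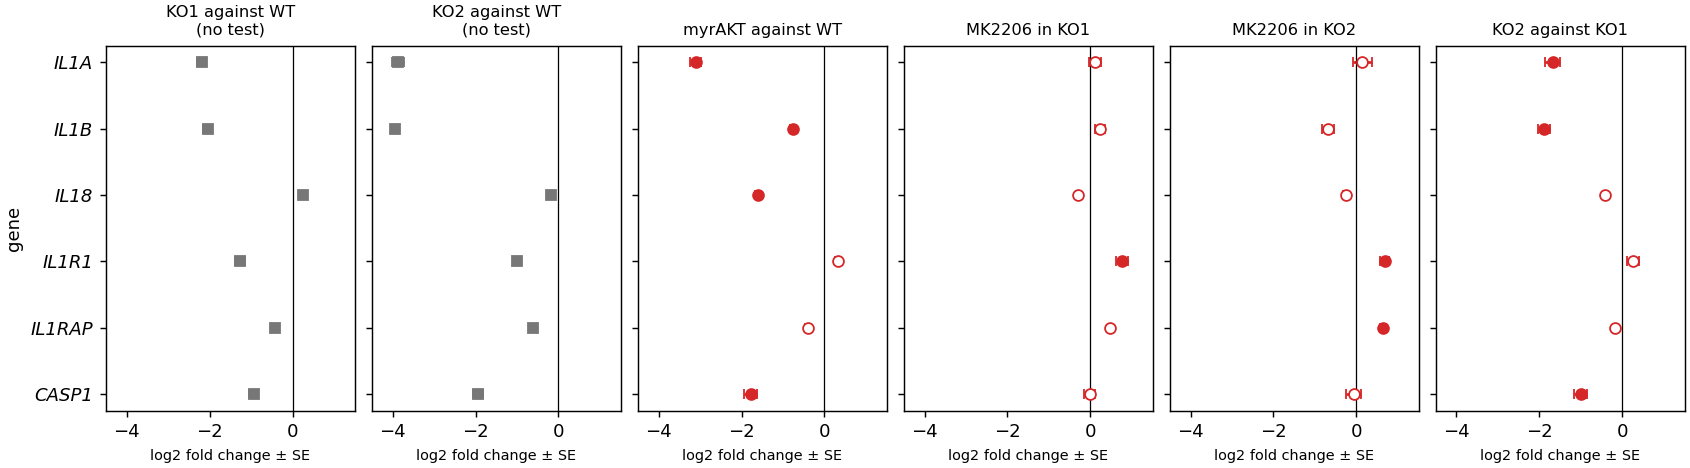
Log2 fold change of the 6 tested genes (points, bars ± SE) in each of 6 comparisons. Squares are the comparisons that chose the genes, shown with no test, filled circles are calls and open circles are not called. IL1A and IL1B lie at -3.87 and -3.93 in KO2 but at -3.11 and -0.75 in myrAKT.

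A gene was called at an edgeR adjusted p of at most 0.001 and a change of at least 1.5-fold. KO1 and KO2 against WT chose the 8 genes, so no calls of these genes are counted there. Of all tested genes, 4.59% were called higher and 9.28% lower in KO1, and 5.56% and 11.2% in KO2. In myrAKT against WT, 4 of 6 genes fell (IL1A, IL1B, IL18 and CASP1) and 0 rose, where 8.83% and 4.94% of all tested genes did. The median log2 fold change of the 6 genes in myrAKT was -1.18, and that of all tested genes was 0.02. This comparison uses the WT libraries on which the genes were chosen, so nothing is read from that excess.

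MK2206 raised 1 of 6 genes in KO1 (IL1R1) and lowered 0, where 3.3% and 1.71% of all tested genes were called higher and lower. In KO2 it raised 2 of 6 genes (IL1R1 and IL1RAP) and lowered 0, where 4.9% and 2.16% of all tested genes were called. Both comparisons use the untreated knockout libraries on which the genes were chosen. IL1A, IL1B and CASP1 were not called in either, and IL1B in KO2 had a lower level with MK2206 that missed the limit. For the difference between the MK2206 effects (KO2 minus KO1), edgeR called 0 of 6 genes in either direction. Over all genes it called 0% higher and 0% lower, 1251 genes had an unadjusted p under 0.05, and DESeq2 called 5. The difference was largest for IL1B, at -0.92 ± 0.219 on the log2 scale (adjusted p = 0.122, unadjusted p = 0.000571).

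KO2 was lower than KO1 for IL1A, IL1B and CASP1. The log2 difference was -1.69 ± 0.187 for IL1A (adjusted p = 2.72e-06), -1.89 ± 0.138 for IL1B (adjusted p = 2.4e-08) and -1.005 ± 0.15 for CASP1 (adjusted p = 6.49e-05), each with all 3 KO2 libraries below all 3 KO1 libraries. IL18 was also lower in KO2, by a log2 difference of -0.43 ± 0.0372 (adjusted p = 1.63e-07), under 1.5-fold. IL1R1 (0.26 ± 0.144, adjusted p = 0.172) and IL1RAP (-0.19 ± 0.0485, adjusted p = 0.006) were not called. This comparison uses the same knockout libraries whose IL1A and IL1B levels chose the genes. In all 3 of 6 genes were called lower and 0 higher, beside 1.87% and 0.744% of all tested genes, and since the genes were chosen on these libraries nothing is read from that excess. The pools differ in their guides and in their history of selection, and these cannot be told apart.

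Of 14 other ligands, receptors and decoys of the family, 4 passed the filter. IL18R1, the ligand-binding chain of the IL-18 receptor, rose in myrAKT from 12 to 14 counts per WT library to 48 to 59, a log2 fold change of 2.06 ± 0.236 (adjusted p = 4.64e-06), in the group where its ligand IL18 was lowest. This 1 call of 4 stands beside 4.94% of all tested genes called higher in myrAKT. IL18R1 passed the filter only through myrAKT, at 1.44 to 1.60 CPM there, and its highest level elsewhere was 0.734 CPM, in KO2. The call thus rests on the group in which IL18R1 is high, and nothing is read from it. No other gene of the list was called in any comparison. IL1R2, the decoy receptor that binds IL-1 without signaling, had 0 to 4 counts per library and was not tested.

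All 18 genes listed for signaling below the receptor were tested, and most were not called. PELI2, a ubiquitin ligase of the Pellino family, fell in KO1 (-0.69 ± 0.0613, adjusted p = 1.68e-07) as the 1 gene called of 18 there, beside 9.28% of all tested genes called lower. In KO2 4 of 18 were lower and 0 higher, beside 11.2% and 5.56% of all tested genes, led by PELI2 (-0.99 ± 0.0569, adjusted p = 8.21e-09), the kinase IRAK2 (-0.94 ± 0.0466, adjusted p = 2.19e-09) and IRAK3 (-0.87 ± 0.0688, adjusted p = 1.35e-07), which restrains the pathway, with PELI1 at -0.69. In myrAKT 3 were lower, IRAK3 (-0.96), PELI1 (-0.93) and IRAK2 (-0.74), and PELI2 was higher (0.62), beside 8.83% and 4.94% of all tested genes. MK2206 raised PELI2 (0.99 ± 0.0645 in KO1 and 1.25 ± 0.0933 in KO2) and PELI1 (0.89 ± 0.059 and 1.24 ± 0.104), with adjusted p of at most 2.79e-07, and in KO2 it also raised IRAK2 (0.73) and lowered IRAK3 (-0.62). Of all tested genes, MK2206 raised 3.3% and lowered 1.71% in KO1, and raised 4.9% and lowered 2.16% in KO2. In KO2 against KO1, IRAK3 (-0.71) was the 1 call, beside 1.87% of all tested genes called lower and 0.744% higher. UBE2N, the ubiquitin-conjugating enzyme Ubc13 that GPS2 is known to inhibit, was not called in any comparison and lay between -0.20 and 0.28 on the log2 scale.

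Of 19 genes of inflammasomes and IL-1 processing other than CASP1, 15 were tested. In KO1 4 were lower (TXNIP, PYCARD, NLRP1 and NLRP3), in KO2 6 and in myrAKT 6, and 0 were higher in any of these, beside 9.28%, 11.2% and 8.83% of all tested genes called lower. PYCARD, the adaptor that brings caspase-1 to its sensors, had log2 fold changes of -1.42 ± 0.188 in KO1 (adjusted p = 1.01e-05), -1.86 ± 0.205 in KO2 (adjusted p = 3.16e-06) and -3.14 ± 0.303 in myrAKT (adjusted p = 8.13e-07), from a WT level of 2.07 CPM. PYCARD passed the filter only with the WT libraries, and its highest level was 0.89 CPM in KO1, 0.60 in KO2 and 0.384 in myrAKT. The filter thus favored its calls, which are part of the counts of 4, 6 and 6, and nothing is read from them. TXNIP, known to bind NLRP3 and also a glucose-responsive gene, fell in KO1 (-1.90), KO2 (-2.19) and myrAKT (-1.32). It was the 1 gene of the 15 that MK2206 raised, beside 3.3% of all tested genes in KO1 and 4.9% in KO2, by 1.12 ± 0.0428 in KO1 (adjusted p = 2.23e-09) and 1.38 ± 0.0636 in KO2 (adjusted p = 1.96e-09). NLRP1, a sensor, fell in KO1 (-0.83 ± 0.0927, adjusted p = 1.82e-06), KO2 (-1.10) and myrAKT (-0.72). The protease CASP4 fell in KO2 (-0.79) and in myrAKT (-1.62 ± 0.051, adjusted p = 9.98e-12). CARD16 (-1.34 in KO2) and CASP4 followed CASP1 in being lower in KO2 than in KO1, by -0.86 and -0.69.

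The list of genes that cells are known to induce on IL-1 stimulation had 22 entries, of which 21 were matched (SOD2 was not) and 19 were tested. It was chosen with earlier results of these data known, so its counts are no independent evidence. In KO1, 2 were higher (MMP3 and CCL2) and 4 lower (CSF2, ICAM1, LIF and BIRC3), beside 4.59% and 9.28% of all tested genes, with CSF2, a myeloid growth factor, at -1.50 ± 0.0907 (adjusted p = 3.63e-09), the adhesion receptor ICAM1 at -1.31 ± 0.0633 (adjusted p = 4.73e-10) and the protease MMP3 at 1.21 ± 0.135 (adjusted p = 1.72e-06). In KO2, 16 were lower and 0 higher, beside 11.2% and 5.56% of all tested genes, led by ICAM1 (-3.50 ± 0.0548), CSF2 (-3.23 ± 0.0888) and the neutrophil chemokine CXCL8 (-2.70 ± 0.0745), and the median over the list was -1.88 beside 0.01 over all genes. In KO1 the median was -0.33. The test between the pools gave 16 lower and 0 higher in KO2 than in KO1, beside 1.87% and 0.744% of all tested genes, led by CXCL8 (-2.23 ± 0.0961), the collagenase MMP1 (-2.21 ± 0.0344) and ICAM1 (-2.19 ± 0.0847), in the same pool in which IL1A and IL1B were lower.

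In myrAKT, 15 of the 19 response genes were lower and 0 higher, beside 8.83% and 4.94% of all tested genes, with a median of -1.46. MMP1 (-4.15 ± 0.0529) and ICAM1 (-3.49 ± 0.0634) led with CCL2, a monocyte chemokine. CCL2 had 0 counts in all 3 myrAKT libraries and a mean of 14.2 CPM in WT, which makes it at least 162-fold lower against a floor of 3 counts per library. The median is the same with CCL2 at that bound. MK2206 left most of the list uncalled. IL11, a cytokine of the IL-6 family, rose in KO1 (1.27 ± 0.0371, adjusted p = 2.27e-10) and KO2 (1.55 ± 0.0422, adjusted p = 1.1e-11). CCL2 was lowered by MK2206 in KO1 (-0.93) and KO2 (-0.85) and CSF2 in KO2 (-1.13), so the counts were 1 higher and 1 lower in KO1, beside 3.3% and 1.71% of all tested genes, and 1 higher and 2 lower in KO2, beside 4.9% and 2.16%. For the difference between the MK2206 effects, edgeR called 0 of the 56 tested genes of the 4 lists, and DESeq2 called 2, CSF2 (-1.27) and the granulocyte growth factor CSF3 (-1.13).

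**Figure D4:**
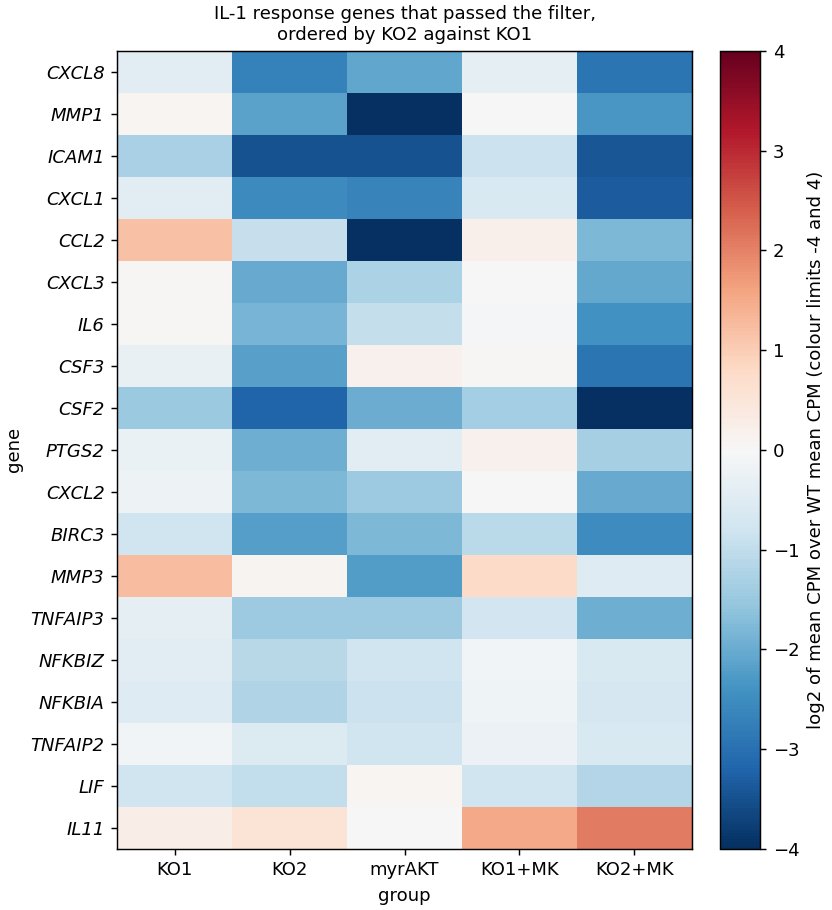
Mean CPM of the 19 tested IL-1 response genes in each group relative to the WT mean (log2, color limits at -4 and 4, values past them drawn at the limit), with genes ordered by KO2 against KO1. The median fitted change was -0.33 in KO1, -1.88 in KO2 and -1.46 in myrAKT, and IL11 is the row that is raised in both MK2206 columns.

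Across the 18 libraries the log2 CPM of IL1A was most like those of EXPH5 (Pearson r = 0.98), DIAPH2 (0.977), CASP1 (0.974), COLGALT2 (0.973) and CACNG7 (0.971). EXPH5, for one, had mean levels of 34.3 CPM in WT, 24.1 in KO1, 17.2 in KO2 and 20.3 in myrAKT. IL1B was most like PPFIBP1 (r = 0.988), SLC37A2 (0.984), BST2 (0.984), SLC39A11 (0.982) and BCL3 (0.975). BST2 had mean levels of 16.2 CPM in WT, 5.07 in KO1, 2.25 in KO2 and 9.6 in myrAKT. The 18 points share groups and replicates, so these values describe a likeness of pattern. IL1A and IL1B correlated at 0.784 with each other, and IL1R1 with IL18 at -0.703.

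The libraries held 23419198 to 39319910 counted reads, fewest in KO1+MK and KO2+MK. GPS2 RNA was 4.39 to 4.88 CPM in WT, 4.45 to 4.52 in KO1 and 5.88 to 6.12 in KO2, and gene counts do not show edited alleles. The authors checked the knockout by western blot and genomic PCR. AKT1 was 218 to 242 CPM in myrAKT and 121 to 145 CPM in the other groups. The mesenchymal markers of this line were all detected (sums of 2970 to 3960 CPM over 5 genes), but 2 of them were called, in opposite directions. FN1 was lower than in WT in KO1 (-0.63 on the log2 scale) and KO2 (-0.73). SPARC was higher in myrAKT than in WT (1.72) and in KO2 than in KO1 (0.89). VIM, CD44 and AXL were not called in any comparison. Of 5 hormone receptor and epithelial markers listed as absent from the line, CDH1 and PGR were at most 0.137 CPM, but ESR1 (0.69 to 1.38 CPM), EPCAM (3.15 to 12.2) and ERBB2 (79.6 to 93.6) passed the filter, and EPCAM was lower in myrAKT than in WT (-1.90 on the log2 scale, adjusted p = 7.54e-10). IL-1 ligands are also made by myeloid cells. Of 7 myeloid markers 2 passed the filter, PTPRC and ITGAM were at most 0.146 CPM, and the sum over the list was 2.52 to 4.14 CPM in WT, 2.21 to 2.89 in the untreated knockout pools, 4.47 to 5.34 in myrAKT and 2.11 to 3.38 with MK2206. The 2 tested markers differed in direction. CD14 was at 1.14 to 2.11 CPM in WT, 0.684 to 0.89 in KO1, 0.489 to 0.6 in KO2 and 0.48 to 0.896 in myrAKT, whereas CSF1R was at 1.14 to 1.81 CPM in WT, 1.24 to 1.67 in KO1, 2.03 to 2.20 in KO2 and 3 to 3.75 in myrAKT. The summed level of 6 fibroblast markers was 34.3 to 38.4 CPM in WT, 25.6 to 26.4 in the untreated knockout pools and 16 to 19.4 in myrAKT, of which 2 genes passed the filter. The part of these markers in the results was not tested.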

How the data were processed

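Total RNA of cultured MDA-MB-231 cells was sequenced after ribosomal depletion. The authors trimmed reads with Trim Galore, aligned them to hg38 with HISAT2 and deposited raw featureCounts counts per Ensembl gene (versions and strand setting not given in the sources used here). The 8 genes and all gene lists were chosen with earlier results of these data known. A gene was tested where 3 or more libraries reached 1 CPM. Each comparison was fitted on its own libraries with edgeR 4.0.16 in R 4.3.3 (TMM factors, quasi-likelihood test, Benjamini-Hochberg adjustment over all 15587 genes, adjusted p of at most 0.001 and at least 1.5-fold), and the difference between MK2206 effects on 4 groups. Scripts were tested on simulated data. Named genes were the 8, UBE2N and IL1R2, the 3 called genes with the largest change per list and comparison, and the 5 most correlated with IL1A and with IL1B. Other named genes (the rest of small counts, marker genes) were named after their values were seen. Alternatives were DESeq2 1.42.0, other scalings, filters and thresholds, a replicate block and leaving out each library. Replicates within groups differed beyond sampling noise. Promoters came from RefSeq, positions from GENCODE.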

Additional observations from a re-analysis of the deposited data

Results flagged for a closer look

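The 2 knockout pools, which target the same gene, had levels that edgeR called different for 3 of the 6 tested genes, beside 1.87% of all tested genes called lower in KO2 than in KO1. The log2 difference was -1.685 for IL1A, -1.885 for IL1B and -1.005 for CASP1, lower in 3 of 3 KO2 libraries than in every KO1 library. IL1A and IL1B were chosen on their levels in these same knockout libraries, so these values are given as a description and nothing is read from the count. Among the pathway genes named above, the log2 difference between the pools was -2.23 for CXCL8, -2.21 for MMP1, -2.19 for ICAM1, -0.86 for CARD16, -0.71 for IRAK3 and -0.69 for CASP4. The cause of the difference between the pools was not tested.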

How the results depend on the processing

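No direction reversed among the called values under any alternative run. The number of genes called was 4 for myrAKT against WT in every leave-one-out fit. For MK2206 in KO1 the count of 1 (IL1R1) became 0 with upper-quartile factors (adjusted p = 0.00161) and 0 with the replicate number as a block (adjusted p = 0.00102), and 3 with no minimum fold change, where IL1RAP and IL18 were added. It was 0 to 1 when single libraries were left out. For MK2206 in KO2 the count of 2 was 1 to 2 when single libraries were left out. For the difference between the MK2206 effects the count of 0 became 1 with no filter on low counts (IL1B, -0.90, adjusted p = 2.04e-06), and the count of 0 pathway genes became 2 with DESeq2 and 2 with no filter (CSF2 and CSF3 in both) and 2 at an adjusted p of at most 0.05. IL1B under MK2206 in KO2 was also called with upper-quartile factors (adjusted p = 0.000898), with no filter (8.91e-06) and at an adjusted p of at most 0.05. The cause of these changes was not tested. Another scaling in edgeR moved the median log2 fold change of all genes by at most 0.0433. Replicate numbers did not pair the libraries: same-numbered libraries correlated at -0.233 to 0.192 in their deviations from group means, and at most 2 of 3 libraries correlated best with their own number. The block changed no other call of the 8 genes. Depth limits IL1A, with as few as 58 counts in KO2 and 54 in KO2+MK, CASP1, with as few as 40 counts in KO2+MK, and IL1RN and IL33.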

Other observations

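Within 1 Mb on either side of the IL1A and IL1B pair, a window chosen after the values were seen, 23 other genes were tested. In KO1 LINC02936 was higher (1.78 on the log2 scale) and ZC3H6 lower (-1.01), and in KO2 LINC02936 was higher (2.14) and ZC3H6 (-1.47) and PSD4 (-0.77) were lower. In myrAKT 3 neighbors were higher, SLC20A1-DT (1.19), PAX8 (0.82) and PAX8-AS1 (0.61), and 0 were lower. POLR1B was lower with MK2206 in KO1 (-0.61) and in KO2 (-0.61). The shares of all tested genes called higher and lower were 4.59% and 9.28% in KO1, 5.56% and 11.2% in KO2, 4.94% and 8.83% in myrAKT, 3.3% and 1.71% with MK2206 in KO1, and 4.9% and 2.16% with MK2206 in KO2.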
